A study of Arabidopsis thaliana with 12 samples.

Results

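Messenger RNA levels of 32 genes of the seed maturation programme were examined in etiolated Arabidopsis thaliana seedlings, out of 31687 genes that had a single entry in at least 1 of 3 deposited tables. The genes were taken from a fixed list of locus identifiers, and every identifier was found in all 3 tables. They comprise 6 oil body proteins (the oleosin genes OLEO1 to OLEO4 and AT3G01570, and the caleosin gene CLO1), 19 late embryogenesis abundant (LEA) proteins of which 3 are dehydrins, the peroxiredoxin PER1, and the 6 regulators ABI3, ABI4, ABI5, FUS3, LEC1 and LEC2. The study sequenced RNA from 12 libraries of whole seedlings in 4 groups of 3. Seeds of every group were held at 4 °C for 3 days, were given light for 12 h and were then grown in the dark for 4 days. The groups were wild type Columbia kept in the dark (Col_D), the same wild type given white light for 6 h at the end (Col_DL6h), the mutant det1-1 kept in the dark, and the mutant pifq kept in the dark. det1-1 is a partial loss-of-function allele of DET1, a nuclear repressor of light-type development. pifq is known as the quadruple mutant of the phytochrome interacting factors PIF1, PIF3, PIF4 and PIF5, which maintain dark growth.

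LEA proteins are small, very hydrophilic proteins that accumulate late in seed development and protect cell contents during drying. Oleosins and caleosins coat the oil bodies in which the embryo stores lipid. Their genes are switched on in the maturing embryo by LEC1, LEC2, FUS3 and ABI3 and, in response to the hormone abscisic acid (ABA), by the bZIP factor ABI5. Most of these transcripts decline when a seed germinates, and some return in seedlings under drought, cold or ABA. In imbibed seeds kept from light, PIF1 holds back germination and is known to bind the promoters of ABI3 and ABI5.

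Levels are in FPKM, a count of sequenced fragments scaled to transcript length and library size, and the authors deposited 1 such value per gene and group, so no value below has a spread between libraries, the depth is unknown, and no difference has a test. A gene was analysed where the authors' program had compared it and the higher group reached 1 FPKM, and differences of 2-fold or more are called. The same dark wild type serves as control in all 3 tables, so the comparisons share it and are not independent of each other. After scaling, the dark wild type values of 30 of the 32 genes agreed within 1.5-fold over the tables. The exceptions were LEC2, listed at 0 in dark wild type, and AT3G22490, which differed by 2.35-fold at levels below 0.3 FPKM. Over all genes analysed, the median log2 fold in light, det1-1 and pifq was 0.01, -0.01 and 0.01. Of the genes mutated in pifq, PIF3 was 30.2 FPKM in dark wild type and 0.802 in pifq, and PIF5 9.44 and 1.39 FPKM. PIF1, at 19.2 and 23.7 FPKM, and PIF4, at 20.5 and 20.9 FPKM, were not lower. PIF4 in dark wild type was 11.2 FPKM in the light table and 10.4 in the det1-1 table. Its control value thus differed between tables. DET1 was 15.1 and 16.7 FPKM in the det1-1 table. A gene under 1 FPKM in one of the groups was analysed only through the higher value of the other, so its call is partly fixed by the minimum. Fewer cells that express a gene and less RNA per cell cannot be told apart in whole seedlings.

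In pifq the seed genes were lower almost throughout. The FPKM was below that of dark wild type for 31 of the 32 genes at any level, and the exception was LEC2, at 0 and 0.0294 FPKM. This count includes genes close to 0, as 7 of the 32 were under 1 FPKM in every group. How many of all genes lie below dark wild type at any level was not counted. Of the 23 genes that could be analysed, 22 were at least 2-fold lower and 0 higher, where 13.4% of 17253 genes were lower and 13.2% higher. Their median log2 fold was -2.14. All 23 were below dark wild type, against 8494 of 17253 over all genes. Of the 23, 9 were analysed only through their dark wild type value, and 8 of these were called lower. The levels of the 32 genes summed to 629 FPKM in dark wild type and 97.1 in pifq, which is 6.48-fold lower. Most of the dark wild type sum came from LEA18 (112 FPKM), RAB18 (105 FPKM), LEA7 (104 FPKM) and OLEO3 (88.5 FPKM). With 1 FPKM added to each group, 17 of the 23 were lower and 0 higher, against 10.5% and 9.66% of all genes. AT3G15670, a LEA gene with a log2 fold of -1.01, lay just past 2-fold, and ABI3, at -0.88, just short of it.

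In det1-1 the same genes divided. Of 25 analysed, 4 were at least 2-fold higher and 6 lower, where 17.9% of 16642 genes were higher and 9.43% lower. The median log2 fold was -0.16. At any level, 17 of the 32 genes were below dark wild type, again with no such count over all genes. Of the analysed genes 15 of 25 were below it, against 8443 of 16642 over all genes. With 1 FPKM added, 2 were higher and 6 lower (14.5% and 6.54% of all genes).

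Light for 6 h left most of the genes within 2-fold. Of 25 analysed, 2 were higher and 7 lower, where 12.7% of 17039 genes were higher and 10.5% lower. The median log2 fold was -0.39, and 24 of the 32 genes were below dark wild type at any level. For all genes that number was not counted here either. Of the analysed genes 19 of 25 were below it, against 8394 of 17039 over all genes. With 1 FPKM added, 1 was higher and 5 lower (9.98% and 8.03% of all genes). The share of higher calls in light and in det1-1 was close to that of all genes. Of the 23 genes analysed in all 3 tables, 23 had a lower log2 fold in pifq than in det1-1, and 22 a lower one in pifq than in light. The exception was ABI3. How often all genes show this order was not counted.

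**Figure D1:**
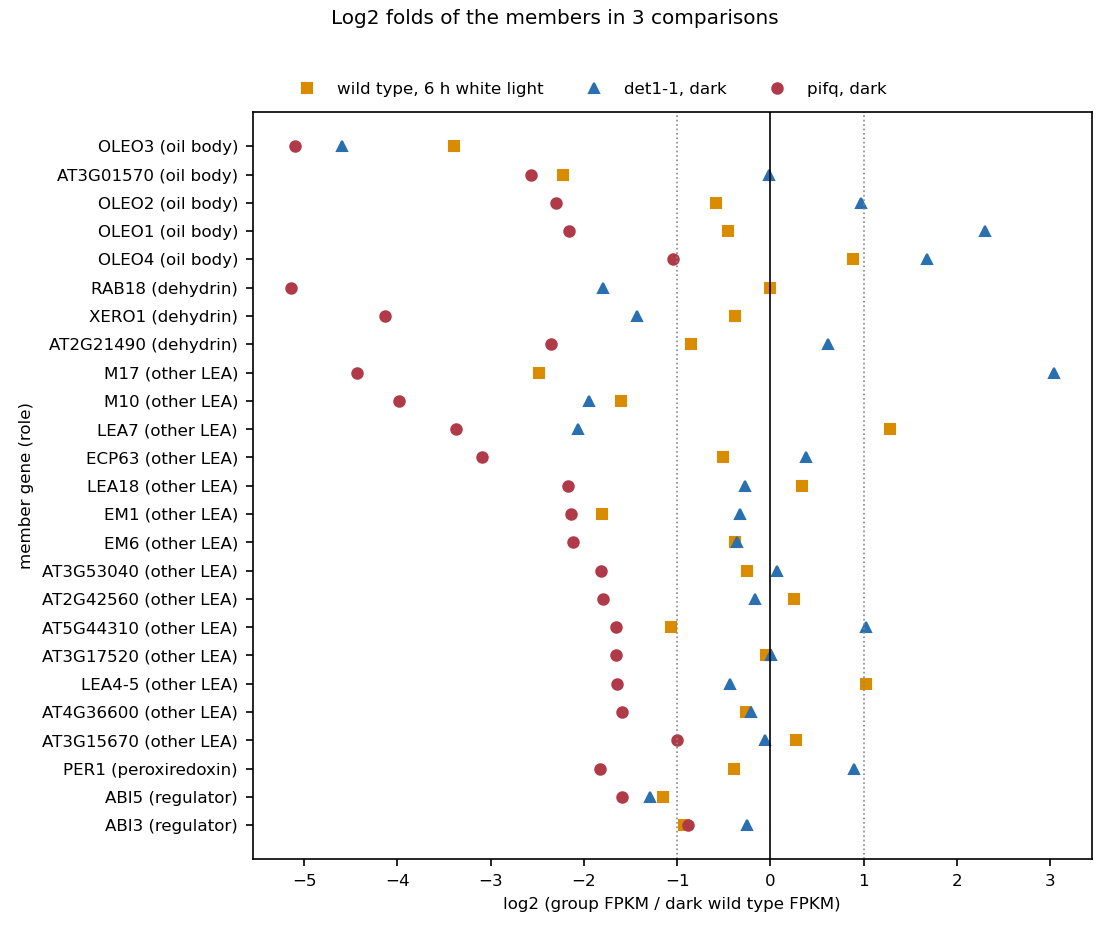
Log2 fold over dark wild type (x axis) of the 25 genes that reached 1 FPKM in any group, with each role ordered by the pifq value; squares are light, triangles det1-1 and circles pifq, each a single value with no error, and dotted lines mark 2-fold. The pifq circles all lie left of 0, while det1-1 triangles spread from -4.59 (OLEO3) to 3.04 (M17).

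Among the regulators, ABI5 and ABI3 were the members above 1 FPKM. ABI5, the bZIP factor that carries ABA responses in seeds and young seedlings, was 7.69 FPKM in dark wild type and 3.46 in light. In the det1-1 table it was 7.13 FPKM in wild type and 2.92 in the mutant. In the pifq table it was 7.49 and 2.48 FPKM. ABI5 was thus low in each of the other groups, with log2 folds of -1.15, -1.29 and -1.59. The call for light was lost with 1 FPKM added, at -0.96.

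ABI3, the B3 factor that acts with ABI5 on seed promoters, was 1.64 FPKM in dark wild type and 0.867 in light. It was 1.52 and 1.28 FPKM in the det1-1 table and 1.52 and 0.825 FPKM in the pifq table. All of these differences were under 2-fold. The other regulators were close to 0 in every group. ABI4, an AP2 factor of ABA and sugar responses, was at most 0.175 FPKM, and FUS3, a B3 factor, at most 0.0917 FPKM. LEC1, a subunit of the NF-Y complex, reached 0.0703 FPKM, and LEC2, a further B3 factor, 0.165 FPKM in det1-1. No fold is read from such levels. The 6 regulators are therefore seen here mainly through ABI5 and ABI3.

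Of the oil body genes, OLEO3 was the most abundant in dark wild type and had the lowest log2 fold in each of the 3 comparisons. Its level was 91.0 FPKM in dark wild type and 8.65 in light. It was 84.4 FPKM in wild type and 3.51 in det1-1. In the pifq table it was 88.5 and 2.58 FPKM. All 3 groups were thus far below dark wild type, by 10.5-fold, 24.1-fold and 34.3-fold, and OLEO3 was lower in each with 5 FPKM added as well (log2 folds of -2.81, -3.39 and -3.62).

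The remaining oleosin genes did not follow OLEO3 in det1-1. OLEO1, a major oleosin of the seed, was 2.16 FPKM in dark wild type and 10.7 in det1-1, 4.94-fold higher. In pifq it was 0.511 against 2.29 FPKM, 4.48-fold lower, and in light 1.70 against 2.33 FPKM. OLEO1 was therefore high in det1-1 and low in pifq against the same control.

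OLEO2 was 12.4 FPKM in dark wild type and 24.3 in det1-1, a log2 fold of 0.97 and just short of a call. In light it was 13.3 and 8.88 FPKM. In the pifq table its values were 13.0 and 2.65 FPKM, but the authors' program made no comparison there, and OLEO2 is not among the 22 lower genes. OLEO2 was thus above its control in det1-1 and below it in the other groups.

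OLEO4 was 0.507 FPKM in dark wild type and 1.62 in det1-1, 3.21-fold higher. The call was lost with 1 FPKM added (log2 0.80), and OLEO4 was analysed only through the mutant's value. AT3G01570, an oleosin family gene, was 6.62 and 6.53 FPKM in the det1-1 table, with almost no difference. It was lower in light (7.14 and 1.53 FPKM) and in pifq (7.11 and 1.20 FPKM). CLO1, a calcium-binding peroxygenase of oil bodies, stayed below 1 FPKM everywhere and was highest in det1-1, at 0.821 against 0.232 FPKM. Summed over the 6 oil body genes, the level was 115 FPKM in dark wild type and 22.0 in light, 106 and 47.4 FPKM in the det1-1 table, and 112 and 7.24 FPKM in the pifq table. OLEO3 makes up most of each dark wild type sum.

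The dehydrins, LEA proteins that stay soluble and bind membranes and ions in drying cells, were lower in both mutants or in pifq alone. RAB18, a classic ABA-induced gene, was 107 FPKM in dark wild type and 107 in light. It was 98.6 FPKM in wild type and 28.4 in det1-1. In the pifq table it was 105 and 2.96 FPKM. RAB18 was thus as high in light as in the dark, lower in det1-1 by 3.47-fold, and lowest in pifq by 35.3-fold.

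XERO1 followed the same order. It was 25.1 and 19.3 FPKM in the light table, 23.3 and 8.66 in the det1-1 table, and 24.4 and 1.39 FPKM in the pifq table. The log2 folds were -0.38, -1.43 and -4.14. AT2G21490, a dehydrin gene at low level, was 0.688 against 1.24 FPKM in light and 1.73 against 1.13 FPKM in det1-1. It was 1.65 and 0.323 FPKM in the pifq table and was called lower there only.

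**Figure D2:**
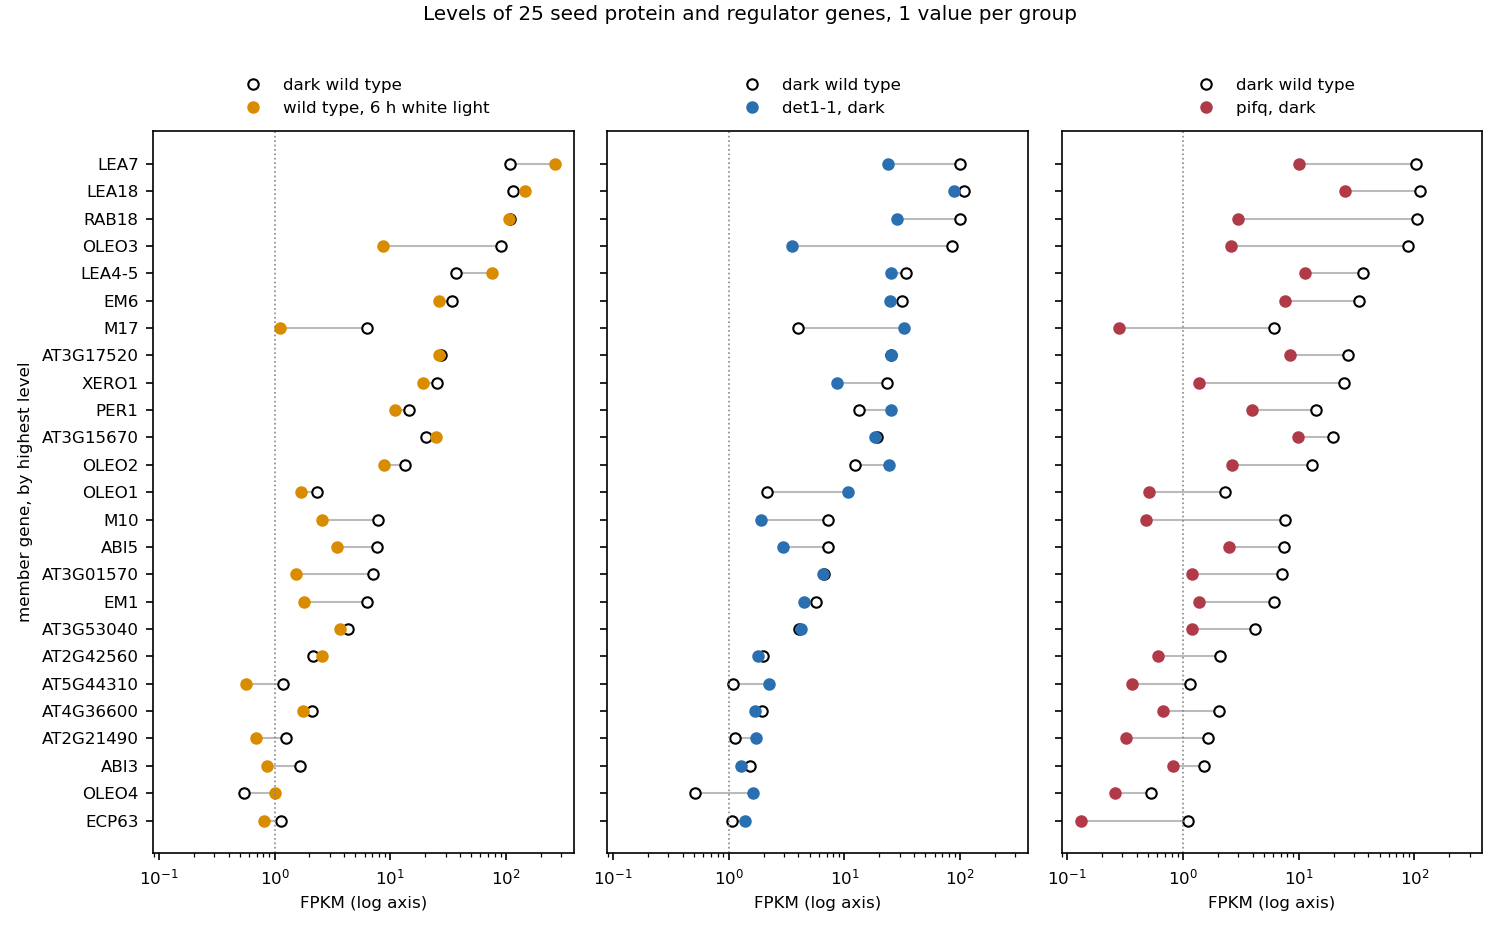
FPKM on a log axis of the 25 genes that reached 1 FPKM in any group, for light, det1-1 and pifq; open circles are dark wild type of the same table, filled circles the other group, each a single value with no error, and the dotted line is 1 FPKM. In pifq each filled circle lies left of its open circle, as for RAB18 at 2.96 against 105 FPKM, whereas in det1-1 M17, OLEO1, OLEO2 and PER1 lie to the right.

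Several LEA genes were abundant in the dark wild type. LEA7, a LEA protein known to bind membranes in the dry state, was 108 FPKM in the dark and 262 in light, 2.44-fold higher. In the det1-1 table it was 99.6 and 23.8 FPKM, 4.18-fold lower. In the pifq table it was 104 and 10.1 FPKM, 10.4-fold lower. Its annotated span shares 297 bases with the gene AT1G52695 on the other strand, whose reads could not be separated here. LEA7 was thus high in light and low in both dark mutants, the one gene with that pattern among the 32.

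LEA4-5, which protects plants from water deficit, was 36.9 FPKM in the dark and 74.8 in light. It was 34.2 and 25.4 FPKM in the det1-1 table and 35.9 and 11.5 FPKM in the pifq table. The light call lies at the limit (log2 1.02, and just under 1 with 1 FPKM added). LEA18, of the same family, was 116 and 146 FPKM in the light table, 107 and 88.7 in the det1-1 table, and 112 and 25.0 FPKM in the pifq table. Of these LEA18 was called in pifq only, 4.49-fold lower.

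EM6 and EM1 are the 2 group-1 LEA proteins of the Arabidopsis seed and known targets of ABI5. EM6 was 34.1 and 26.3 FPKM in the light table, 31.6 and 24.7 in the det1-1 table, and 33.2 and 7.63 FPKM in the pifq table. It was low in pifq only. EM1 was 6.25 and 1.78 FPKM in the light table, 5.63 and 4.50 in the det1-1 table, and 6.09 and 1.38 FPKM in the pifq table. EM1 was low in light (log2 -1.81) and in pifq (-2.14), and within 2-fold in det1-1 (-0.32).

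M17 and M10 are LEA genes that lie close together on chromosome 2 (M17 at chr2:17206452-17207698 and M10 at chr2:17209697-17210423, TAIR10.1, both on the plus strand) and differed in det1-1. M17 was 3.96 FPKM in dark wild type and 32.6 in det1-1, 8.21-fold higher. In light it was 1.12 against 6.25 FPKM and in pifq 0.282 against 6.09 FPKM. M17 was thus the gene furthest up in det1-1 and, by a log2 fold of -4.43, among the lowest in pifq. Of the 32-base words in its exons, 48.4% recur within the gene itself, and its dark wild type value differed between tables by 1.47-fold after scaling; against the median of the 3 scaled control values its log2 fold in det1-1 was 2.49 rather than 3.04. M10 was 7.82 and 2.58 FPKM in the light table, 7.25 and 1.89 in the det1-1 table, and 7.59 and 0.479 FPKM in the pifq table. M10 was low in all 3.

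A further 5 LEA genes were within 2-fold of dark wild type in light and in det1-1 and lower in pifq. AT3G17520 was 26.7 FPKM in dark wild type and 8.47 in pifq, and AT3G15670 19.9 and 9.93 FPKM. AT3G53040 was 4.24 and 1.20 FPKM, AT2G42560 2.09 and 0.604 FPKM, and AT4G36600 2.04 and 0.678 FPKM. Their det1-1 log2 folds ran from -0.21 (AT4G36600) to 0.07 (AT3G53040). ECP63, an embryonic cell protein of the LEA family, did the same, at 1.11 and 0.131 FPKM in the pifq table. With 1 FPKM added, the pifq calls of AT3G15670 (log2 -0.94), AT2G42560 (-0.95), AT4G36600 (-0.86) and ECP63 (-0.90) were lost. AT5G44310 was 2.22 against 1.09 FPKM in det1-1, 0.566 against 1.18 FPKM in light and 0.365 against 1.15 FPKM in pifq. Its det1-1 value was thus above the control and the other values below. With 1 FPKM added AT5G44310 was within 2-fold in all 3. The seed maturation protein genes AT3G22490 and ECP31 were at most 0.238 and 0.0868 FPKM.

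PER1, a seed peroxiredoxin that removes peroxides, was 13.5 FPKM in dark wild type and 25.1 in det1-1, a log2 fold of 0.90. In light it was 11.1 against 14.5 FPKM and in pifq 3.98 against 14.1 FPKM. PER1 was called in pifq only, and like OLEO2 it was above dark wild type in det1-1 without reaching 2-fold.

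Over the 3 comparisons, 10 genes were called lower in pifq and within 2-fold in the other groups. Among these, AT3G15670, AT2G42560, AT4G36600 and ECP63 lost the pifq call with 1 FPKM added. The genes lower in all 3 were OLEO3, M10 and ABI5. RAB18 and XERO1 were lower in both mutants and within 2-fold in light. LEA7 was lower in both mutants and higher in light. LEA4-5 was lower in pifq, within 2-fold in det1-1 and higher in light, where its call lay at the limit. EM1 and AT3G01570 were lower in light and pifq and within 2-fold in det1-1. M17 and AT5G44310 were lower in light and pifq and higher in det1-1, and OLEO1 was lower in pifq and higher in det1-1. The share of all genes with each of these patterns was not counted.

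**Figure D3:**
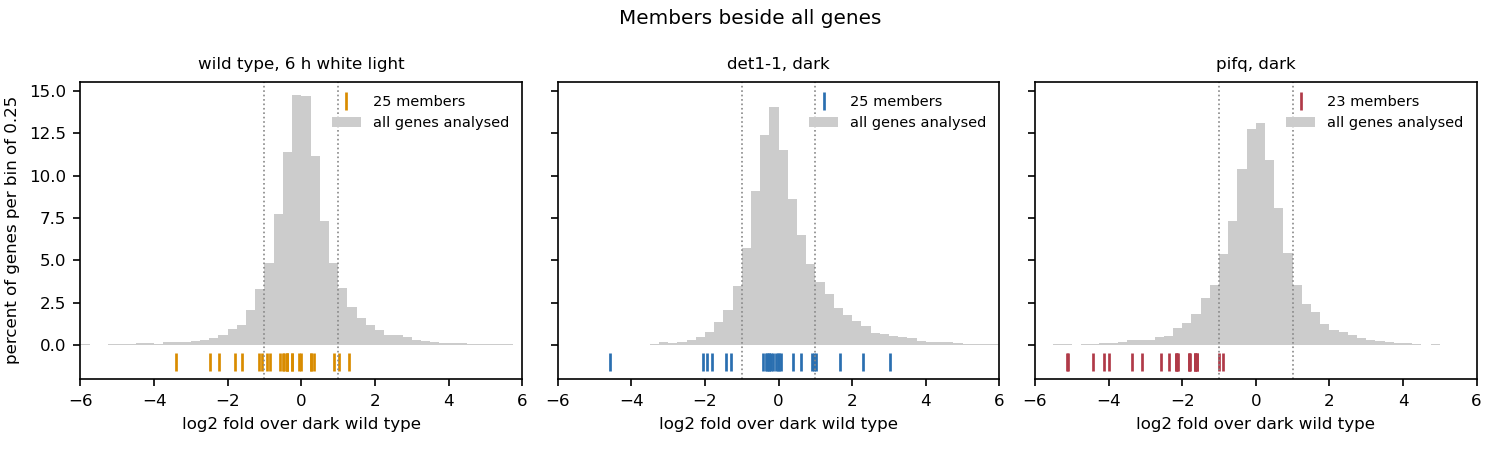
Distribution of log2 folds over all genes analysed (grey bars, percent of genes per bin of 0.25, drawn from -6 to 6) for light, det1-1 and pifq, with each analysed seed gene as a tick below; dotted lines mark 2-fold. The 23 ticks for pifq lie between -5.14 and -0.88, whereas the 25 for det1-1 lie on either side of 0.

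The 150 bases before the annotated gene start are shown for the 4 genes of at least 5 FPKM with the lowest log2 fold in pifq and for the regulator ABI5, since their promoters can be compared with their levels. The sequences are RefSeq's of the TAIR10.1 build, written 5′ to 3′ on the strand of the gene. They lie at chr5:26519448-26519597 (minus strand, RAB18), chr5:20819918-20820067 (plus strand, OLEO3), chr2:17206302-17206451 (plus strand, M17), chr3:18941775-18941924 (plus strand, XERO1) and chr2:15207637-15207786 (minus strand, ABI5). Capitals mark, on either strand, the core of the ABA response element ACGTG, the G-box CACGTG, which contains that core and is known to be bound by PIFs, HY5 and ABI5, and the RY element CATGCA, bound by the B3 factors.
RAB18: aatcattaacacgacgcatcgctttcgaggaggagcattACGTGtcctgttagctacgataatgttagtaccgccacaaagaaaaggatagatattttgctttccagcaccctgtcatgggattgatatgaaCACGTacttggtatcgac
OLEO3: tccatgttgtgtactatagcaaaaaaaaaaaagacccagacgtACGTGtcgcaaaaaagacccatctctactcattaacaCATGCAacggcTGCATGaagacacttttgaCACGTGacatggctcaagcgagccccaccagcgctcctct
M17: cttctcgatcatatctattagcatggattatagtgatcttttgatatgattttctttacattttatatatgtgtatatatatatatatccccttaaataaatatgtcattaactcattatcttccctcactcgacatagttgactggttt
XERO1: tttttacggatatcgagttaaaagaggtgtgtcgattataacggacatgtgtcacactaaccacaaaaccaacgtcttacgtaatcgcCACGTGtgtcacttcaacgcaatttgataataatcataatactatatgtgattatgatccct
ABI5: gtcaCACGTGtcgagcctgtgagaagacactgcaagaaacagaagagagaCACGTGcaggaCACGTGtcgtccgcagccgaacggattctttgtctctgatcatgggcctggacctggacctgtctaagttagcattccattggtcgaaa

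The printed stretch of ABI5 holds 3 G-boxes and that of OLEO3 holds 1 G-box, 1 further ABA response core and 2 RY elements. XERO1 has a single G-box and RAB18 has 2 ABA response cores without a G-box. M17 has none of the 3 motifs in the whole window of 250 bases, and its log2 fold in pifq was -4.43. In that window, the ABA response core was present for 23 of the 32 genes (71.9%) and 22.9% of 27443 protein-coding genes. The G-box was present for 16 of 32 (50.0%) and 6.49% of all, and the RY element for 12 of 32 (37.5%) and 8.43% of all. Of the analysed genes, all 16 with a G-box and 6 of the 7 without it were called lower in pifq. Since 22 of the 23 analysed genes were lower, this split cannot tell genes with and without a G-box apart. The genes not analysed in pifq all lack a G-box. The median log2 fold in pifq was -1.97 for those 16 and -2.36 for the 7 analysed genes without a G-box. In det1-1, 2 of the 16 genes with a G-box were higher and 5 lower, and 2 of the 9 without it were higher and 1 lower. Among genes other than the 32, 18.1% of those with a G-box were higher in det1-1 and 8.18% lower. Without a G-box the shares were close to these, at 17.6% higher and 9.14% lower of 14896 genes. A match of letters describes the sequence and does not show that a factor binds there.

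**Figure D4:**
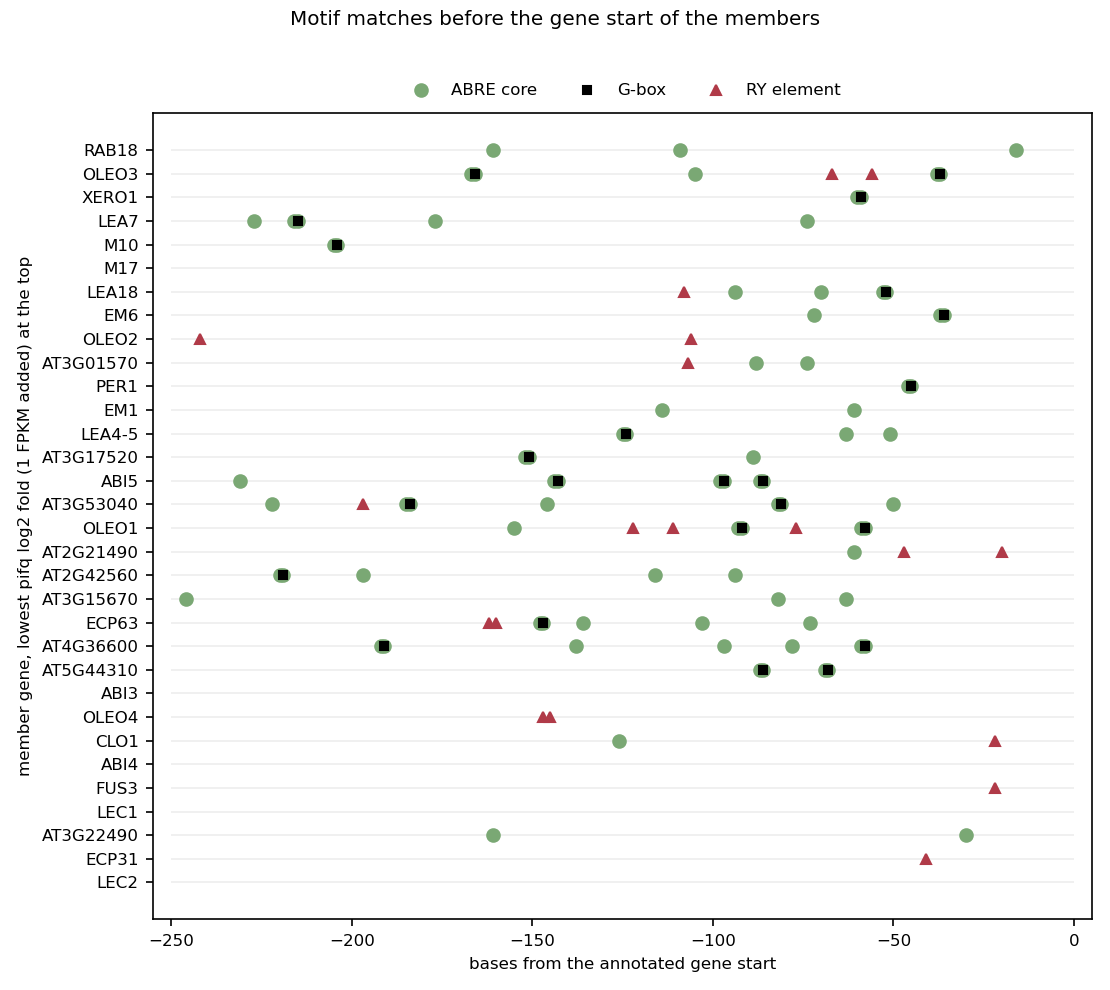
Position of each motif match (x axis, bases from the annotated gene start) before the 32 genes, which are ordered by their log2 fold in pifq with 1 FPKM added; circles are the ABA response core, squares the G-box and triangles the RY element, and a square lies on top of circles because the G-box contains the core. Matches to the core lie mostly before genes in the upper part, while M17 and, further down, ABI3, ABI4, LEC1 and LEC2 have no match to any of the 3. The added 1 FPKM places genes close to 0 FPKM in the lower part by construction, so the order partly follows level. Among analysed genes, the median log2 fold in pifq was -2.14 for 21 with the core and -2.66 for 2 without it.

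The wider LEA family and the ABA pathway were read from lists of further genes. Of 17 LEA genes outside the 32 that were analysed in pifq, 10 were lower and 3 higher (median log2 fold -1.17). AT2G23110 was 4.19 FPKM in dark wild type and 0.494 in pifq, and AT2G23120 was 252 and 62.6 FPKM, while AT4G38410 was higher at 6.22 against 1.38 FPKM. In det1-1, 3 of 20 were higher and 0 lower (median -0.08). LEA3 was 19.8 against 0.544 FPKM there, COR15B, a cold-regulated chloroplast protein, 7.08 against 0.0636 FPKM, and AT4G39130 2.33 against 0.815 FPKM. All 3 were analysed only through their det1-1 value. In light, 6 of 20 were higher and 3 lower (median -0.20). The cold-induced dehydrin XERO2 was 617 FPKM in light and 88.0 in the dark, COR15B was 7.03 against 0.0687 FPKM and LEA3 2.74 against 0.587 FPKM. None of the 3 lower calls in light held with 1 FPKM added.

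Other lipid droplet genes were lower in 5 of 7 in pifq (median -1.97) and split in det1-1 and light, at 2 higher and 3 lower of 9 in det1-1 (median -0.22) and 3 higher and 2 lower of 9 in light (median -0.07). HSD5, a sterol dehydrogenase family member, was 5.14 and 0.238 FPKM in the pifq table, 4.90 and 0.782 FPKM in the det1-1 table, and 5.28 and 0.188 FPKM in the light table. AT2G47780, a lipid droplet associated protein gene, was 153 and 17.7 FPKM in the pifq table, 146 and 25.2 FPKM in the det1-1 table, and 157 and 9.35 FPKM in the light table. Like OLEO3, HSD5 and AT2G47780 were thus low in all 3 groups. The caleosin RD20 was 21.0 and 2.01 FPKM in the pifq table. AT1G05510 was 2.48 against 0.290 FPKM in det1-1, and HSD1 (AT5G50600) was 2.28 against 0.342 FPKM in light. HSD1 has a near-identical copy, AT5G50700, at 2.18 against 0.328 FPKM in light, and both values are uncertain. HSD1 and its copy are both among the 3 higher calls in light and were analysed only through their light value.

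Several ABA receptor genes were higher in the mutants. In det1-1, 6 of 10 were higher and 0 lower (median 1.07), with PYL6 at 15.1 against 0.696 FPKM, PYL2 at 3.72 against 0.410 FPKM and PYL7 at 186 against 52.1 FPKM. Of these 6, 3 (PYL2, PYL3 and PYL6) were analysed only through their det1-1 value. PYL7 was 12.8 FPKM in dark wild type of the pifq table, so its control value differed between tables. In pifq, 3 of 9 were higher and 0 lower (median 0.10), with PYL6 at 7.28 against 0.730 FPKM, PYL2 at 2.76 against 0.435 FPKM and PYL4 at 185 against 72.4 FPKM; PYL2 and PYL6 were analysed only through their pifq value. In light, PYL6 alone of 8 was higher, at 1.90 against 0.751 FPKM (median 0.34), and was under 2-fold with 1 FPKM added. Phosphatases and kinases act below the receptors, and all lower calls in that list were phosphatases. In det1-1, 5 of 9 were lower and 0 higher (median -1.28), and in pifq 5 of 11 were lower and 0 higher (median -0.86). The kinases SNRK2.2 and SNRK2.3 had log2 folds of -0.55 and -0.87 in det1-1 and -0.46 and -0.86 in pifq, all under 2-fold. HAI1, an ABA-induced phosphatase, was 20.0 FPKM in dark wild type and 4.77 in det1-1, and 21.1 and 3.05 FPKM in the pifq table. HAI3 was 1.67 and 0.473 FPKM in det1-1, 1.75 and 0.287 FPKM in pifq, and 1.80 and 0.683 FPKM in light, where it was the 1 lower call of 9 (median -0.22). HAI3 was under 2-fold in light and in det1-1 with 1 FPKM added. PP2CA was 50.4 and 17.2 FPKM in the det1-1 table, and HAI2 4.32 and 1.21 FPKM in the pifq table.

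Genes of ABA synthesis and breakdown comprised 2 higher and 3 lower of 8 in det1-1 (median -0.23), 2 higher and 1 lower of 8 in light (median 0.07), and 1 lower of 7 in pifq (median -0.39). NCED3, the rate-limiting enzyme of ABA synthesis under stress, was 16.9 and 7.60 FPKM in the light table, 15.6 and 3.65 in the det1-1 table, and 16.4 and 4.89 FPKM in the pifq table. NCED3 was thus low in all 3 groups. CYP707A2, which breaks ABA down, was 11.4 against 0.557 FPKM in light and 2.36 against 0.516 FPKM in det1-1. The more abundant breakdown genes CYP707A1 (8.05 against 20.9 FPKM) and CYP707A3 (3.81 against 8.95 FPKM) were lower in det1-1, so breakdown genes were called in both directions there. ZEP, which acts early in ABA synthesis, was 53.6 against 22.6 FPKM in light and 108 against 20.9 FPKM in det1-1.

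The bZIP partners of ABI5 and the AFP proteins that bind ABI5 were lower in 4 of 11 in pifq (median -0.40), in 1 of 8 in det1-1 (median -0.21) and in 2 of 9 in light, where 1 was higher (median 0.14). EEL, a close relative of ABI5, was 34.8 and 9.74 FPKM in the pifq table. ABF3 was 96.6 and 30.1 FPKM in the pifq table and 168 and 76.8 FPKM in the light table; its dark wild type values therefore differed between tables. AFP3, a negative partner of ABI5, was 113 and 52.4 FPKM in light, 105 and 52.1 FPKM in det1-1, and 110 and 28.2 FPKM in pifq. ABF1 was higher in light, at 41.8 against 12.0 FPKM. Of 18 genes listed as repressors of the seed programme in seedlings, 13 were analysed in light (median 0.01) and 11 in det1-1 (median -0.09), and 0 of these were called. They include VAL1, PICKLE and several Polycomb subunits. VAL2, VAL3, PKR2, MSI1 and HDA19 were not analysed in either, nor CLF and FIE in det1-1. In pifq 1 of 12 was called, the Polycomb methyltransferase CLF, at 11.7 against 4.49 FPKM (median 0.06). VAL1 in dark wild type was 162 FPKM in the pifq table, but 13.0 and 12.0 FPKM in the light and det1-1 tables. Its control value thus differed between tables.

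Seed storage proteins and oil mobilisation genes were read beside the seed genes. Storage proteins are made in the maturing embryo, and the oil genes act after germination. The 8 storage protein genes with a single entry in all 3 tables summed to 9.47 FPKM in dark wild type and 6.67 in light, 8.51 and 97.5 FPKM in the det1-1 table, and 9.21 and 1.19 FPKM in the pifq table. All 8 were above dark wild type in det1-1 and all 8 below it in pifq. In det1-1 the storage proteins were thus on the same side as 10 of the 25 analysed seed genes, OLEO1 and M17 among them. The other 15, with OLEO3, LEA7 and RAB18 among them, lay below dark wild type there. In pifq the storage proteins were on the side of nearly the whole set. In the pifq table CRC was 4.20 and 0.113 FPKM, CRA1 13.5 and 0.524 FPKM and SESA3 1.34 and 0.386 FPKM. The highest folds in det1-1 were those of SESA2 (1.12 to 18.0 FPKM), CRC (3.79 to 44.3 FPKM) and AT1G03880 (0.178 to 1.92 FPKM). CRC was also lower in light, at 1.99 against 4.32 FPKM, a call lost with 1 FPKM added (log2 -0.83). Of the 7 storage protein genes called higher in det1-1, 4 were analysed only through their det1-1 value, and the 4 called lower in pifq only through dark wild type. The part of storage protein levels in the results for the seed genes was not tested.

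The endosperm gene EPR1 stayed within 2-fold. It was 10.8 FPKM in dark wild type and 12.7 in pifq, 7.20 and 8.08 FPKM in the det1-1 table, and 10.3 and 6.63 FPKM in the light table. The control value of EPR1 thus differed between tables and was lowest in the det1-1 table. Of the 9 oil mobilisation genes, 0 were called in pifq (median -0.21), 1 was lower in det1-1 (median -0.25) and 3 were lower in light (median -0.55). ICL, the isocitrate lyase of the glyoxylate cycle, was 597 and 112 FPKM in the light table. MLS, the malate synthase of the cycle, was 43.7 and 11.8 FPKM in that table, and PCK1, which starts sugar synthesis from oil, was 583 and 149 FPKM. PCK1 was also the lower gene in det1-1, at 163 against 521 FPKM. Markers of seedling organs were present in dark wild type. In the light table SHR and SCR of the root were at 19.6 and 20.7 FPKM, SUC2 and PXY of the vasculature at 47.2 and 9.05 FPKM, and EXPA7 of root hairs at 11.1 FPKM. SMB of the root cap was below 1 FPKM there, at 0.679 FPKM. Of 9 markers analysed in pifq, 2 were higher and 0 lower, ATML1 of the epidermis at 49.6 against 24.3 FPKM and SMB at 1.63 against 0.659 FPKM. In det1-1, 2 of 8 were lower, PORA of etiolated cotyledons at 3.72 against 161 FPKM and SHR at 9.07 against 18.2 FPKM. In light, 2 of 8 were lower, PORA at 3.08 against 178 FPKM and STM of the shoot apex at 2.92 against 6.01 FPKM. The part of organ composition in the results for the seed genes was not tested.

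**Figure D5:**
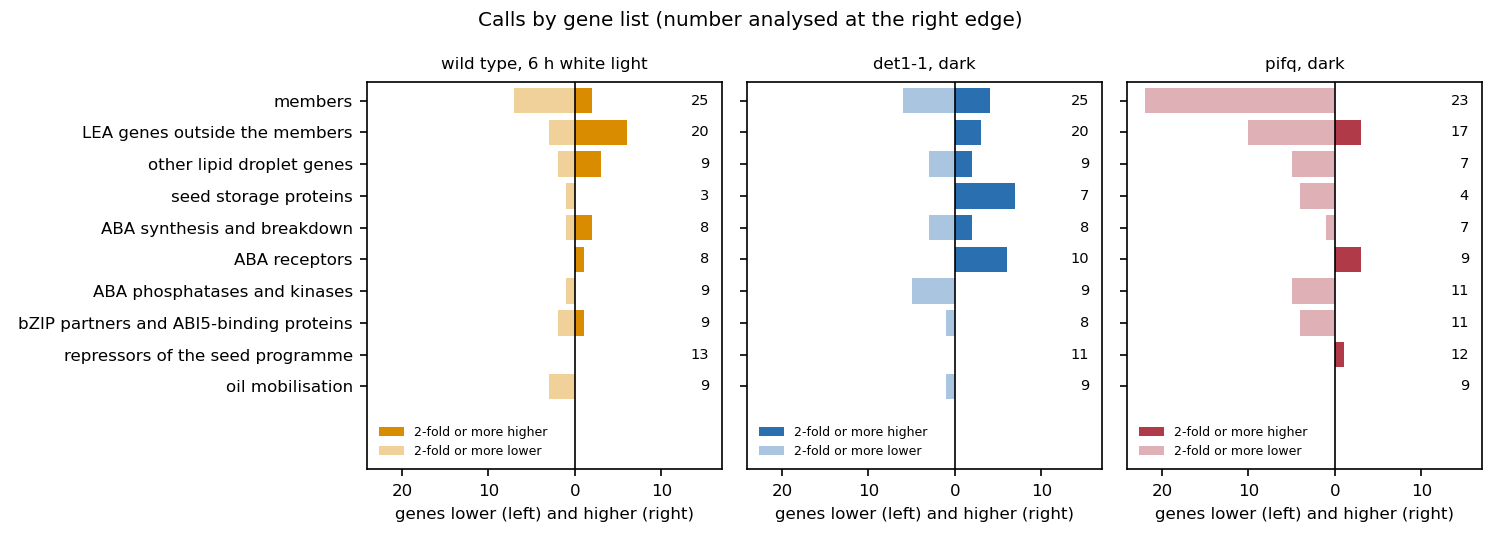
Number of genes at least 2-fold lower (pale bars, to the left) and higher (full bars, to the right) in the set of seed genes (top row, members) and in 9 further lists, for light, det1-1 and pifq; numbers at the right edge are genes analysed. The bar for the seed genes in pifq reaches 22 lower of 23, and the storage proteins lie to the right in det1-1 (7 of 7) and to the left in pifq (4 of 4), counts that the minimum of 1 FPKM partly fixes.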

How the data were processed

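RNA sequencing of 12 libraries (3 in each of 4 groups) was used through 3 tables of levels, in which light, det1-1 and pifq are each compared with dark wild type. TopHat, Cufflinks and the build TAIR10 are named in the submitters' processing notes; versions, settings, strand handling and annotation are not given in the sources used here. Levels were deposited by the authors as 1 FPKM value per gene and group, pooled over the 3 libraries, and a log2 ratio. No header states the unit, and FPKM was inferred from the use of Cufflinks. The deposited log2 ratio differed from that of the deposited FPKM by at most 0.0074 and is 0 where no comparison was made. Replicate values, depth and p-values were not used here, so the values were described without a test, as designed.

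Log2 folds were computed with no pseudocount (Python 3.11.15, pandas 2.3.3). Genes with several entries and entries without a name (291, 291 and 231) were left out. A gene was analysed where the program had compared it, each group was above 0 and the higher reached 1 FPKM. All 32 genes were matched to RefSeq's TAIR10.1 annotation, whose coordinates are used; the tables hold none. Of the 32, 6 overlap another protein-coding gene, LEA7 by the most bases (297), and at most 0.773% of the 32-base words of any of them occur elsewhere in the genome. Since strand handling is unknown, reads of overlapping genes may be mixed. Protein sequences were not used here. The code of the 2-fold rule was run on simulated data whose planted folds lay clear of 2-fold. That run checks the code only and says nothing about calls near the limit. How far the calls depend on depth or on spread between libraries was not tested.

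The 32 genes, the 12 further lists and the rules were chosen with earlier results of these data known. All 32 genes were accounted for, and up to 3 called genes of each list and comparison with the largest absolute log2 fold were named. EPR1, the organ markers under 2-fold and the sums were added to that rule after values were seen. Alternatives were an added 1 or 5 FPKM, no minimum, a minimum of 5 FPKM, agreement of dark wild type between tables, a common control, and centring; inclusion of genes not compared and omission of repetitive or overlapping genes were added after seeing the data.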

Additional observations from a re-analysis of the deposited data

How the results depend on the processing

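No paired analysis was possible because the tables hold 1 value per group, and for the same reason leaving out replicates was not run. With 1 FPKM added to each group, 1 seed gene rather than 2 was higher in light and 2 rather than 4 in det1-1, and 5 rather than 9 genes of the 7 pathway lists were lower in light. With 5 FPKM added, 1 seed gene was higher and 1 rather than 7 lower in light, 2 were higher in det1-1, and 11 rather than 22 were lower in pifq, with a median log2 fold of -0.97. Pathway genes then numbered 3 lower in light, 7 higher (13 before) and 6 lower (12 before) in det1-1, and 3 higher (7 before) and 16 lower (25 before) in pifq. Without a minimum, 16 pathway genes were lower in light; with a minimum of 5 FPKM, 5 were, and 2 seed genes and 7 pathway genes were higher in det1-1. Without repetitive or overlapping genes, 1 seed gene was higher in light and 2 in det1-1. Beyond the setting with 1 FPKM added, the shares of all genes under these alternatives were not counted. Whether the seed genes still exceed all genes there is thus not known. The added FPKM shrinks folds of low genes by construction. Among list genes named by rule, calls lost with 1 FPKM added were PYL6, HAI3, CRC and STM in light, AT4G39130, HAI3, AFP3 and SHR in det1-1, and SESA3 and SMB in pifq. Of the seed genes and the list genes named by rule, 0 changed direction under the alternatives run. Low levels cannot be given an error because the depth is unknown.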

Other observations

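Over all genes other than the 32, a G-box in the 250 bases before the start went with only slightly more lower calls in pifq. Of 1215 analysed genes with a G-box, 15.1% were lower and 12.1% higher, and of 15223 without it 12.0% were lower and 13.3% higher. For the RY element, 18.7% of 1290 genes with it and 11.7% of 15148 without it were lower in pifq. In light the RY shares were 16.0% of 1288 and 9.05% of 14976, and in det1-1 14.8% of 1279 and 8.58% of 14827. These shares are descriptions over genes of pooled libraries, and no test was made.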
